A study of Mus musculus with 12 samples.

Results

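The subunits of the oxidative phosphorylation system were followed gene by gene in macrophages sorted from mouse tumours. A gene was a member if its symbol started with Ndufa, Ndufb, Ndufc, Ndufs or Ndufv (assembly factors of the Ndufaf series left out), Uqcr, Cox4i, Cox5, Cox6, Cox7, Cox8 or Atp5, or was Sdha, Sdhb, Sdhc, Sdhd, Cyc1 or Cycs. The rule used no measured level, and it took in 82 of the 20289 genes with a named probe, each read by the brightest of its probes over the 8 group arrays. Complex I held 36 members, complex II 4, complex III 9, cytochrome c 1, complex IV 16 and complex V 16. A deposited detection p under 0.05 is called above background here, and genes above background on at least 2 of the 8 group arrays passed the filter, which left 13128 genes and 75 members. The probe of 66 members was above background on all 8 arrays.

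Oxidative phosphorylation passes electrons from NADH through complex I, or from succinate through complex II, to ubiquinone, then through complex III, cytochrome c and complex IV to oxygen. Complexes I, III and IV pump protons out of the mitochondrial matrix, and complex V, the ATP synthase, makes ATP as they flow back. In macrophages, oxidative phosphorylation is known to be high in alternatively activated cells and to be curtailed after classical activation.

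The macrophages came from C57BL/6 mice that lacked S1PR1 (KO), a receptor for the lipid sphingosine-1-phosphate, or carried it (WT). The groups, with 2 arrays each, were KO_PyMT and WT_PyMT, from female mice with PyMT breast tumours, and KO_MCA and WT_MCA, from male mice with MCA fibrosarcomas. Cells were sorted for high CD11b and pooled, their RNA was amplified, and expression was read on single-colour Illumina BeadChips. All PyMT group arrays shared 1 BeadChip and all MCA group arrays the other, so tumour, sex and BeadChip cannot be told apart, while KO and WT arrays of a tumour shared a BeadChip. Of 4 further arrays, 1 held mixed PyMT macrophages, 2 held mixed MCA macrophages and 1 repeated the sample of KO_MCA replicate 1 on the PyMT BeadChip. How S1PR1 was deleted, and whether replicates came from separate mice or pools, is not given in the sources used, and the p-values therefore cover only array-to-array spread, which may be technical.

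Between 39.6% and 50.2% of probes were above background on an array. On the 4 PyMT group arrays this was 18316 to 20756 probes, and on the 4 MCA group arrays 21849 to 23223. The sample of KO_MCA replicate 1 had 22662 probes above background on the MCA BeadChip and 20967 when repeated on the PyMT BeadChip. The repeat thus lay between the PyMT and MCA group arrays, and the part of the BeadChip in detection was not tested. The 8 macrophage markers with a probe (Adgre1, Csf1r, Itgam, Cd68, Mertk, Fcgr1, Lyz2 and Cd14) were above background on all 8 arrays. The probe of S1pr1 was above background on 0 of 12 arrays, with raw signals of 76.0 to 88.2, so the genotype labels could not be checked on it.

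Because the members form stoichiometric complexes, a pair of short motifs was looked up in their promoters, the window from 250 bases before to 50 bases after the start in the RefSeq table (GRCm38.p6). The core letters of the binding site of the respiratory factor NRF-1, shown in capitals in the sequences printed here, stood on either strand in 5 of the 66 members with a promoter entry (7.58%), in 1.97% of 10413 tested genes and in 1.07% of all 27025 genes. The ETS letters CCGGAAG, of the kind bound by GABPA (also called NRF-2), stood in 16 of the 66 (24.2%), in 17.9% of tested genes and in 9.93% of all genes. The NRF-1 letters read the same on both strands and share no stretch with the ETS letters. A match is a description of the letters and does not show a bound site. Of the 5 members with the NRF-1 letters, Uqcrc1 has them after the start. In the others they lie upstream, and 100 bases around them are shown because these promoters belong to subunits whose values follow: Atp5k (e subunit, chr5:108434400-108434499, minus strand) and Atp5g2 (c subunit, chr15:102671048-102671147, minus strand) of complex V, Cox6a1 of complex IV (chr5:115349061-115349160, minus strand) and Ndufa11 of complex I (chr17:56717662-56717761, plus strand). Capitals mark the NRF-1 letters.
Atp5k: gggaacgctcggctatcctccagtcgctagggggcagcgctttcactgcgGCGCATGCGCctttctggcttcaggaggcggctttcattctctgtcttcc
Atp5g2: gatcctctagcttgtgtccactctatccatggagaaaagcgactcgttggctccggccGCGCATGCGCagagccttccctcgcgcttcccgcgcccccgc
Cox6a1: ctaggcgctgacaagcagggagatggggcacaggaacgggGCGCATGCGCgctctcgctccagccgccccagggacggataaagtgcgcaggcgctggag
Ndufa11: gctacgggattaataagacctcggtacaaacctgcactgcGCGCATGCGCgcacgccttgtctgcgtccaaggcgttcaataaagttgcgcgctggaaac

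The first question is how the members stood in macrophages of the 2 tumour kinds. Members were lower in PyMT than in MCA macrophages with few exceptions, where higher and lower name the sign of a difference: 71 of 75 had a negative PyMT minus MCA difference, against 49.9% of all genes tested, 4 had a positive one, against 50.1%, and the median difference was -0.34 on the log2 scale, against 3e-04 over all genes. With arrays scaled to a common median in place of quantile normalization, 73 of 75 members were lower (median -0.58), and so were 65% of all genes (median -0.135). In all, 26 members were lower at an unadjusted p under 0.05, and 8.65% of all genes were, while 0 members were higher (6.59% of all genes). For 19 members every PyMT array lay below every MCA array, which held for 5.57% of all genes, and 0 members had the reverse (5.02%). After Benjamini-Hochberg adjustment in the limma fit, 0 members were called at an adjusted p under 0.05, lower or higher, with 0.0229% of all genes called lower and 0.16% called higher. The smallest adjusted p of a member was 0.0969. Values after ± are standard errors of that fit, over 4 arrays a side for tumours and 2 a side for genotypes within a tumour. A lower level in bulk RNA can come from fewer cells of a type or from less RNA per cell, and these cannot be told apart.

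**Figure D1:**
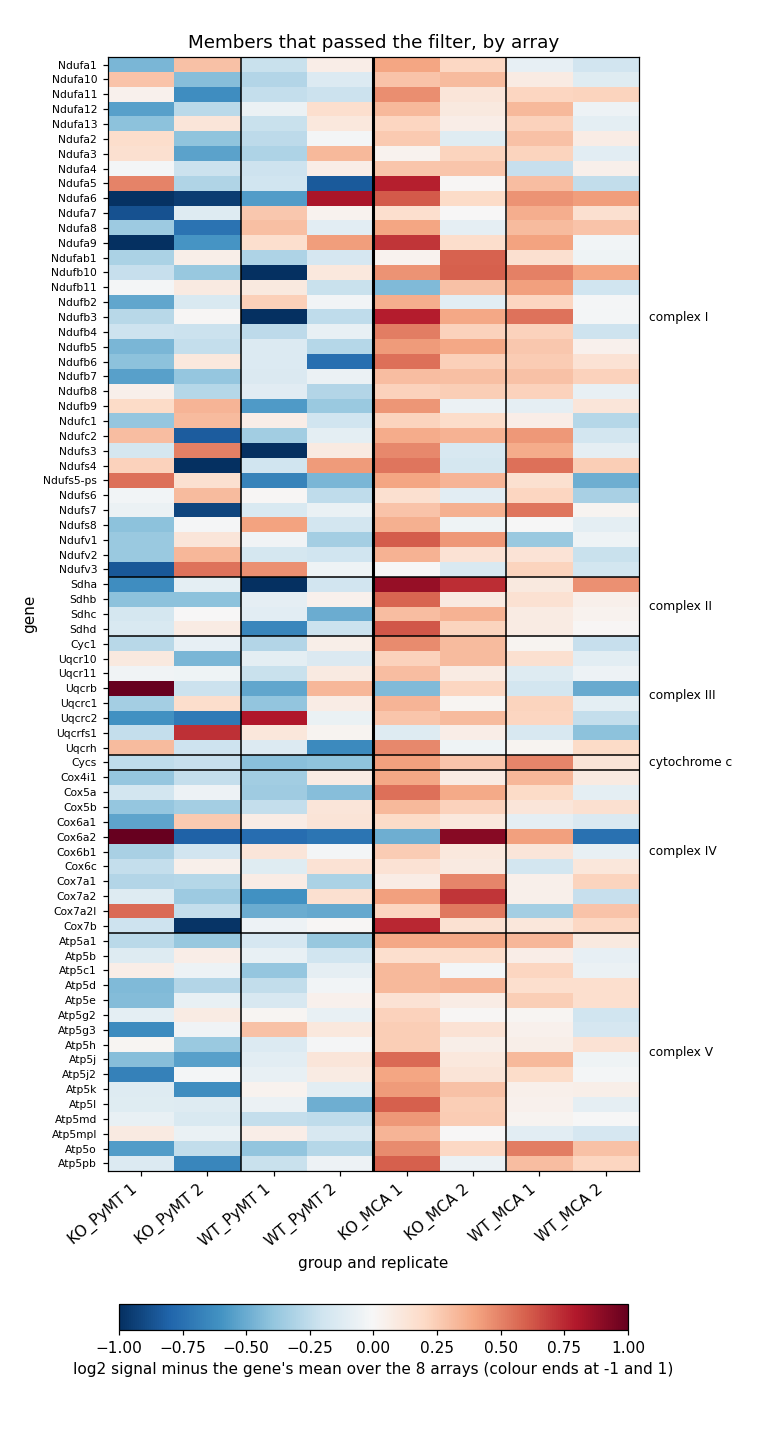
Heat map of the 75 members that passed the filter (rows, by complex) on the 8 group arrays (columns), as log2 signal minus each gene's mean over the 8 arrays, with colours ending at -1 and 1. The KO_MCA columns are mostly red and the PyMT columns mostly blue, and single genes such as Cox6a2 and Uqcrb have 1 array far from the rest.

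All 16 members of complex V were lower in PyMT macrophages (median -0.35), and for 7 the arrays did not overlap (5.57% of all genes). Atp5o, the OSCP subunit that joins the catalytic head to the stalk, had log2 signals of 6.93 and 7.24 in KO_PyMT, 7.10 and 7.20 in WT_PyMT, 7.96 and 7.70 in KO_MCA and 7.997 and 7.78 in WT_MCA. Its difference was -0.74 ± 0.14. Every PyMT array was below every MCA array, and KO and WT arrays overlapped within each tumour. The further probes of Atp5o gave -0.39 and 0.01, so its size depended on the probe. Atp5a1, the catalytic head's alpha subunit, had 5.79 and 5.68 in KO_PyMT, 5.89 and 5.68 in WT_PyMT, 6.45 and 6.45 in KO_MCA and 6.39 and 6.16 in WT_MCA, again without overlap (-0.60 ± 0.14, adjusted p = 0.124). Atp5b, the beta subunit that carries the catalytic sites, differed by -0.16 ± 0.13 with overlapping arrays. Of the ring-forming c subunits, Atp5g2 differed by -0.03 ± 0.14 and Atp5g3 by -0.14 ± 0.22, both within their errors. Atp5d, the delta subunit of the central stalk, differed by -0.50 ± 0.14, and Atp5k by -0.41 ± 0.19, both without overlap.

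Cytochrome c, the soluble carrier between complexes III and IV, is coded by Cycs in somatic cells. Its probe read 6.48 and 6.51 in KO_PyMT, 6.33 and 6.34 in WT_PyMT, 7.15 and 7.02 in KO_MCA and 7.23 and 6.87 in WT_MCA. The PyMT values were tight and lay below all MCA values (-0.65 ± 0.13, adjusted p = 0.116). The further probes of Cycs went the other way, at 0.11 and 0.29, and the mixed PyMT array and mixed MCA replicate 1 were lower than any group array on the probe used, at 5.92 and 6.00.

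All 4 subunits of complex II, which is also succinate dehydrogenase of the tricarboxylic acid cycle, were lower in PyMT macrophages (median -0.45). Sdha, the flavoprotein that oxidises succinate, had the largest negative difference of all members, -1.08 ± 0.25 (adjusted p = 0.127). It read 4.88 and 5.41 in KO_PyMT, 4.26 and 5.31 in WT_PyMT, 6.38 and 6.24 in KO_MCA and 5.60 and 5.97 in WT_MCA. The arrays did not overlap, but 1 array was not above background and a further Sdha probe, above background on 2 arrays, gave 0.30. The iron-sulphur subunit Sdhb differed by -0.44 ± 0.18, and the membrane anchors Sdhc and Sdhd by -0.39 ± 0.14 and -0.47 ± 0.16. Arrays of Sdhb and Sdhc did not overlap, and those of Sdhd did.

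In complex I, 33 of 35 members were lower in PyMT macrophages (median -0.32), 6 of them without overlap (5.57% of all genes). The core subunits, which hold the flavin and most iron-sulphur clusters, were lower in 5 of 5 cases, by -0.60 for Ndufs7, -0.31 for the NADH-binding Ndufv1, -0.30 for Ndufs3, -0.21 for Ndufv2 and -0.10 for Ndufs8. Only Ndufs7 among them had arrays without overlap. Accessory subunits were lower in 28 of 30 cases (median -0.35). Their most negative differences were -0.97 ± 0.30 for Ndufb10, -0.85 ± 0.25 for Ndufb3 and -0.84 ± 0.34 for Ndufa6, and a further Ndufa6 probe gave 0.87. Ndufv3 and Ndufs6 were the complex I members with a positive difference, 0.06 and 0.03, both far inside their errors. The further Ndufv3 probes gave -0.20 and 0.13, and the further Ndufs6 probe gave -0.51, the opposite direction. Ndufa11, an accessory membrane subunit whose promoter is printed above, read 6.49 and 5.82 in KO_PyMT, 6.21 and 6.23 in WT_PyMT, 6.91 and 6.57 in KO_MCA and 6.66 and 6.66 in WT_MCA (-0.51 ± 0.18, adjusted p = 0.243), and its PyMT and MCA arrays did not overlap.

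All 11 members of complex IV were lower (median -0.41), and 5 had an unadjusted p under 0.05 (8.65% of all genes). Cox4i1 and Cox5a, regulatory subunits that assemble early, differed by -0.45 ± 0.16 and -0.51 ± 0.13, and Cox5b by -0.42 ± 0.15. Arrays overlapped for Cox4i1 and Cox5a but not for Cox5b or Cox7b (-0.62 ± 0.26). In complex III, 6 of 8 members were lower, with a median of -0.26 and 0 members at an unadjusted p under 0.05. Cyc1, the haem protein cytochrome c1, differed by -0.30 ± 0.18. Uqcrfs1, the Rieske iron-sulphur protein, and Uqcrb, a small subunit near the quinone site, were higher, by 0.32 ± 0.22 and 0.46 ± 0.36. Each had 1 KO_PyMT array above all the other group arrays: Uqcrb read 7.85 and 6.33 in KO_PyMT, 6.03 and 6.87 in WT_PyMT, 6.10 and 6.76 in KO_MCA and 6.36 and 6.03 in WT_MCA. Without the higher KO_PyMT array, the differences were 0.11 for Uqcrb (replicate 1 left out) and 0.13 for Uqcrfs1 (replicate 2 left out).

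**Figure D2:**
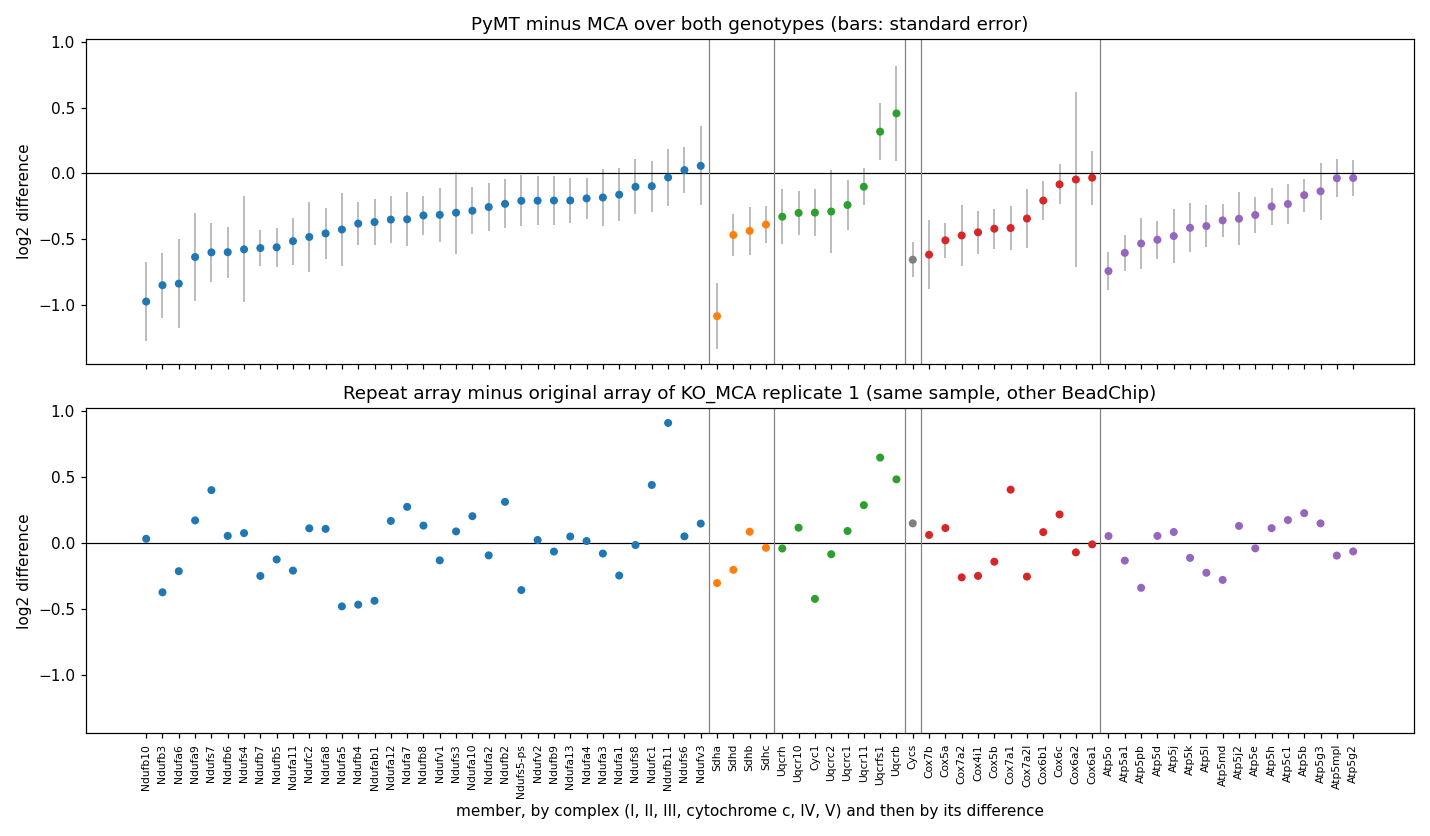
Upper panel, PyMT minus MCA log2 difference of each member with its standard error (n = 4 arrays a side); lower panel, the repeat array minus the original array of KO_MCA replicate 1, the same sample on the other BeadChip. Points in the upper panel lie below 0 for 71 of 75 members, and in the lower panel they scatter around 0 (median 0.03).

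Over all members the direction held within each genotype, with unequal size. KO_PyMT was below KO_MCA for 68 of 75 members (50.4% of all genes), with a median of -0.46, and 48 members (24.7% of all genes) had no overlap. WT_PyMT was below WT_MCA for 57 members (50.9% of all genes), with a median of -0.20, and 32 members (21.1% of all genes) had no overlap. In complex V all 16 members were lower in KO_PyMT than KO_MCA and 13 in WT_PyMT than WT_MCA. In complex III it was 6 and 4 of 8, with medians of -0.24 and 0.0046, so that complex showed no direction in WT.

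The repeated sample gives a measurement across BeadChips. Its array on the PyMT BeadChip differed from the original on the MCA BeadChip by a median of 0.03 over the members, with 40 higher and 35 lower and an SD of 0.25 across members. Set against this repeat on the same BeadChip, the mean of the 4 PyMT group arrays was lower for 72 of 75 members, with a median of -0.51, while 48.7% of all genes were lower. This rests on 1 MCA sample, whose array had the highest median over the members of the 8 group arrays. On the mixed arrays the members stood near all genes. There mixed_PyMT lay below the mean of the mixed_MCA arrays for 41 of 75 members (54.7%) and for 52.5% of all genes. The medians were -0.06 over the members and -0.02 over all genes.

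Other measures also moved with tumour. The summed signal of the 8 macrophage markers was 3297 to 3316 in KO_PyMT, 3333 to 3614 in WT_PyMT, 3997 to 4485 in KO_MCA and 4327 to 4558 in WT_MCA. Of 6 dendritic cell markers, 3 to 5 were above background in PyMT groups and 4 to 6 in MCA groups. Their sums were 277 to 394 in the PyMT groups and 82.3 to 192 in the MCA groups. Most of this came from Itgax, at 7.63 to 7.89 in PyMT groups and 6.10 to 7.36 in MCA groups, and Batf3, at 5.87 to 6.89 and 4.65 to 5.37. Flt3, Zbtb46, Xcr1 and Clec9a read 5.87 or less on every group array. Of 10 epithelial and mammary markers, 3 to 7 were above background in PyMT groups and 1 to 3 in MCA groups, with sums of 152 to 428 and 66.2 to 81.2 there. Among the milk proteins of that list, Csn3 (kappa-casein) read 5.28 and 5.95 in KO_PyMT, 5.84 and 5.87 in WT_PyMT, 4.22 and 4.11 in KO_MCA and 4.22 and 4.09 in WT_MCA, a difference of 1.57 that passed limma's test (adjusted p = 0.0196), while Lalba was above background on 2 arrays and Wap and Csn2 on 0. The other 6 epithelial and mammary markers tested were also higher in PyMT, without passing the test. Fibroblast markers, 10 in all, summed to 35.3 to 117 in the PyMT groups with 2 to 3 above background, to 145 to 162 in KO_MCA with 6 to 7, and to 68.9 and 1031 on the WT_MCA arrays with 4 to 9. Of the 8 tested in each list, 7 macrophage markers (median -0.32) and 8 fibroblast markers (median -0.80) had a negative PyMT minus MCA difference, with 0 called. The part of these cells, of detection and of sex in the tumour difference was not tested.

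**Figure D3:**
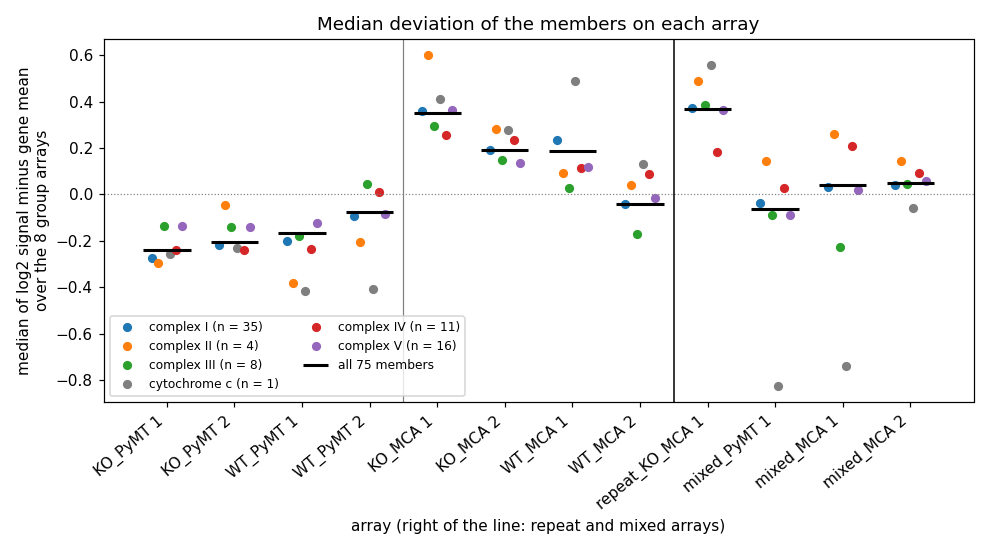
Median over the members, in all and by complex, of log2 signal minus each gene's mean over the 8 group arrays, for each of the 12 arrays. The 4 PyMT group arrays lie at -0.24 to -0.07 for all 75 members, the MCA group arrays at -0.04 to 0.35, the repeat array at 0.37 and the mixed arrays between -0.06 and 0.05.

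The second question, for which the study was made, is what the loss of S1PR1 did to these genes in each tumour. In MCA macrophages most members stood higher in KO than in WT, by little: 66 of 75 had a positive KO minus WT difference, against 49.9% of all genes, 9 had a negative one, against 50.1%, with a median of 0.20 over the members and -3e-04 over all genes. For 29 members both KO_MCA arrays lay above both WT_MCA arrays, which held for 15.7% of all genes, and for 1 member, Atp5e, both lay below, which held for 14.9%. By limma 0 members were called, as were 0% of all genes in either direction, and every member had an adjusted p of 1. At an unadjusted p under 0.05, 1 member was higher (0.914% of all genes) and 0 were lower (0.663%). The count rested on single arrays: without KO_MCA replicate 1 it was 48 higher and 27 lower (median 0.14), and without WT_MCA replicate 2 it was 52 higher and 23 lower (median 0.10). Arrays of a group differed among themselves by a like amount: KO_MCA replicate 2 was below replicate 1 by a median of 0.17 over the members, and WT_MCA replicate 2 below replicate 1 by 0.21. This comparison and the tumour comparison share the same MCA arrays.

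Complexes II, III and IV had every tested member higher in KO_MCA, 4 of 4 (median 0.32), 8 of 8 (0.25) and 11 of 11 (0.27). In complex V it was 14 of 16 (0.18) and in complex I 28 of 35 (0.16). Ndufv1, the NADH-binding core subunit of complex I, was the member with the smallest p. It read 8.12 and 7.95 in KO_MCA and 7.14 and 7.48 in WT_MCA, and the difference was 0.73 ± 0.25. Its arrays did not overlap in MCA, and in PyMT the KO values of 7.15 and 7.64 and the WT values of 7.48 and 7.17 did. The other core subunits Ndufs3, Ndufs7, Ndufs8 and Ndufv2 differed by 0.02, 0.04, 0.21 and 0.29.

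Cyc1 of complex III read 6.54 and 6.38 in KO_MCA and 6.09 and 5.84 in WT_MCA (0.50 ± 0.22), but the repeat array of KO_MCA replicate 1 read 6.11, just above the higher WT_MCA array. Cox7a2 of complex IV, the isoform found in most tissues, read 5.12 and 5.43 in KO_MCA and 4.76 and 4.48 in WT_MCA (0.65 ± 0.30). Its probe was above background on 6 of 8 arrays. Cox4i1, Cox5a and Cox5b differed by 0.02, 0.42 and 0.14, and the succinate dehydrogenase subunits Sdha, Sdhb, Sdhc and Sdhd by 0.53, 0.23, 0.27 and 0.37. For Cycs the difference was 0.03, with overlapping arrays. In complex V, Atp5a1, Atp5b, Atp5g2 and Atp5g3 had 0.17, 0.18, 0.21 and 0.26, each with an SE of 0.18 to 0.24.

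Among the 9 members lower in KO_MCA, the smallest p belonged to the accessory subunits Ndufa7 (-0.18 ± 0.28), Ndufb11 (-0.19 ± 0.32) and Ndufa8 (-0.15 ± 0.26), all inside their errors. A further Ndufb11 probe gave 0.31. Marker lists moved in the same comparison. All 8 fibroblast markers tested had a negative KO minus WT difference in MCA (median -0.62), 1 of them without overlap (14.9% of all genes). Their sums on the WT_MCA arrays, given above, lay on either side of those of KO_MCA. Of the 8 macrophage markers, 6 had a negative difference (median -0.16). Both KO_MCA arrays lay below both WT_MCA arrays for 4 of them, Itgam (which codes for CD11b), Mertk, Fcgr1 and Cd14, and for 14.9% of all genes. Mertk had an unadjusted p under 0.05 by limma, and 0.663% of all genes were lower at that level. No marker of either list was called after adjustment, and their part in the genotype difference was not tested.

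In PyMT macrophages the members showed no common direction: 34 were higher and 41 lower in KO than in WT (49.6% and 50.4% of all genes), with a median of -0.04, which turned to 0.01 with arrays scaled to a common median. Both KO_PyMT arrays lay above both WT_PyMT arrays for 8 members (17.2% of all genes) and below them for 16 (18.7% of all genes). By limma 0 members were called (0% of all genes in either direction). At an unadjusted p under 0.05, 2 were higher (4.83% of all genes) and 4 lower (6.17%). By complex, the higher and lower counts were 16 and 19 in complex I, 3 and 1 in complex II, 5 and 3 in complex III, 3 and 8 in complex IV and 6 and 10 in complex V, and Cycs was higher by 0.17. Replicates were further apart here, with an SD across members of 0.66 between the KO_PyMT arrays, 0.44 between the WT_PyMT arrays, 0.34 between the KO_MCA arrays and 0.27 between the WT_MCA arrays. Of the 8 macrophage markers, 5 had a negative KO minus WT difference in PyMT (median -0.26). For 4 of these, Itgam, Cd68, Fcgr1 and Csf1r, the arrays did not overlap, as for 18.7% of all genes. No macrophage marker was called, and the part of these markers was not tested.

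Ndufa9, an accessory subunit beside the quinone site of complex I, had the smallest p. It read 5.46 and 6.14 in KO_PyMT and 6.90 and 7.15 in WT_PyMT (-1.22 ± 0.32, adjusted p = 0.251). The KO_PyMT values were also below the MCA values, 7.44 and 6.91 in KO_MCA and 7.13 and 6.71 in WT_MCA, which overlapped. Uqcrc2, a core protein of complex III, read 6.94 and 6.85 in KO_PyMT and 8.35 and 7.48 in WT_PyMT (-1.02 ± 0.32, adjusted p = 0.32), and the WT_PyMT replicates were themselves far apart. Without WT_PyMT replicate 1 its difference was -0.59.

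Ndufa6 of complex I read 5.00 and 5.03 in KO_PyMT and 5.42 and 6.80 in WT_PyMT (-1.10 ± 0.43), and its further probe gave 1.37, the opposite direction. Cox7a2l, counted here with complex IV, read 9.70 and 8.90 in KO_PyMT and 8.64 and 8.63 in WT_PyMT (0.67 ± 0.33), and its further probe gave -0.80. The direction of these members in PyMT therefore depended on the probe. In all, 26 members had a further probe above background on at least 2 arrays. The probe used and the brightest further one had the same sign for 17 in PyMT and 22 in MCA. The medians over these 26 were -0.06 and 0.14 in PyMT and 0.18 and 0.26 in MCA. In PyMT minus MCA the sign was the same for 21, with medians of -0.42 and -0.24, so the size of the tumour difference depended on the probe. For KO minus WT over both tumours the sign was the same for 15 and opposite for 11, with medians of 2e-04 and 0.16.

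Ndufb9, an accessory subunit of complex I, read 5.99 and 6.14 in KO_PyMT and 5.23 and 5.43 in WT_PyMT (0.74 ± 0.23, adjusted p = 0.329). The gene entry Ndufs5-ps, a pseudogene of the complex I subunit Ndufs5, had 8.06 and 7.68 in KO_PyMT and 6.85 and 7.06 in WT_PyMT (0.92 ± 0.27, adjusted p = 0.295). Both KO arrays were above both WT arrays for each of them. Whether the Ndufs5-ps probe also reads Ndufs5 was not tested.

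**Figure D4:**
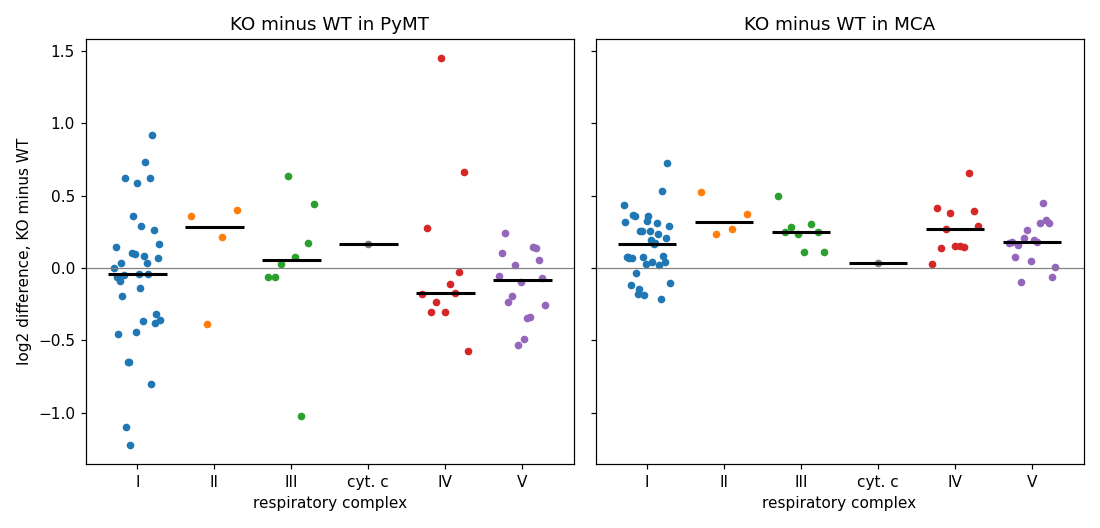
KO minus WT log2 difference of each member (points) by respiratory complex, in PyMT (left) and MCA (right) macrophages, with the median of each complex as a line (n = 2 arrays a group). In MCA 66 of 75 points lie above 0, and in PyMT the points spread wider, with 34 above 0.

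Over both tumours, 44 members were higher and 31 lower in KO (50% of all genes each way), with a median of 0.10. By limma 0 were called (0% of all genes in either direction), the smallest adjusted p being 0.933, and 5 were higher at an unadjusted p under 0.05 (2.46% of all genes) with 0 lower (2.65%). No member had all 4 KO arrays on 1 side of all 4 WT arrays (1.17% of all genes higher, 1.2% lower). Within both tumours at once, 4 members had KO arrays above WT arrays without overlap, Ndufs5-ps, Cox5a, Sdhd and Atp5md (2.86% of all genes), and 0 had them below (2.96%). For 6 members KO arrays lay below WT arrays in PyMT and above them in MCA without overlap (2.89% of all genes), and 0 had the opposite arrangement (2.42%).

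Cox5a, the matrix-facing regulatory subunit of complex IV, read 8.24 and 8.37 in KO_PyMT, 8.07 and 8.002 in WT_PyMT, 8.97 and 8.80 in KO_MCA and 8.61 and 8.33 in WT_MCA (0.35 ± 0.13). Sdhd, an anchor of complex II, read 7.20 and 7.43 in KO_PyMT, 6.69 and 7.13 in WT_PyMT, 7.96 and 7.57 in KO_MCA and 7.43 and 7.36 in WT_MCA (0.39 ± 0.16). Both were higher in KO within a tumour, and the MCA WT values still lay near or above the PyMT KO values. Atp5md, a small membrane subunit of complex V, differed by 0.23 ± 0.12 and Ndufs5-ps by 0.73 ± 0.19. Ndufb9 followed with 0.46 ± 0.18. On the lower side stood Ndufa8 (-0.40 ± 0.20), Ndufa7 (-0.41 ± 0.20) and Ndufa6 (-0.56 ± 0.34), with further probes at 0.23 for Ndufa8 and 0.67 for Ndufa6.

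Whether the genotype difference itself differed between tumours was tested by the interaction. It was negative, that is lower in PyMT than in MCA, for 58 of 75 members (50.7% of all genes) and positive for 17 (49.3%), with a median of -0.26, and in complex V for 15 of 16. By limma 0 were called (0% of all genes), and at an unadjusted p under 0.05 there were 2 lower (3.39% of all genes) and 0 higher (2.36%). Those were Ndufa9 (-1.48 ± 0.45, adjusted p = 0.693) and Uqcrc2 (-1.33 ± 0.45, adjusted p = 0.744). Atp5g3 came next with -0.79 ± 0.35: it read 6.83 and 7.42 in KO_PyMT and 7.75 and 7.57 in WT_PyMT, against 7.71 and 7.61 in KO_MCA and 7.50 and 7.29 in WT_MCA. The smallest p on the higher side belonged to Ndufb9 (0.56 ± 0.33), Ndufs5-ps (0.38 ± 0.38) and Ndufs3 (0.61 ± 0.63), all with wide errors. For the 26 members with a further probe above background, the interaction had the same sign on both probes for 17 and opposite signs for 9. Its medians were -0.27 on the probe used and -0.19 on the further one.

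**Figure D5:**
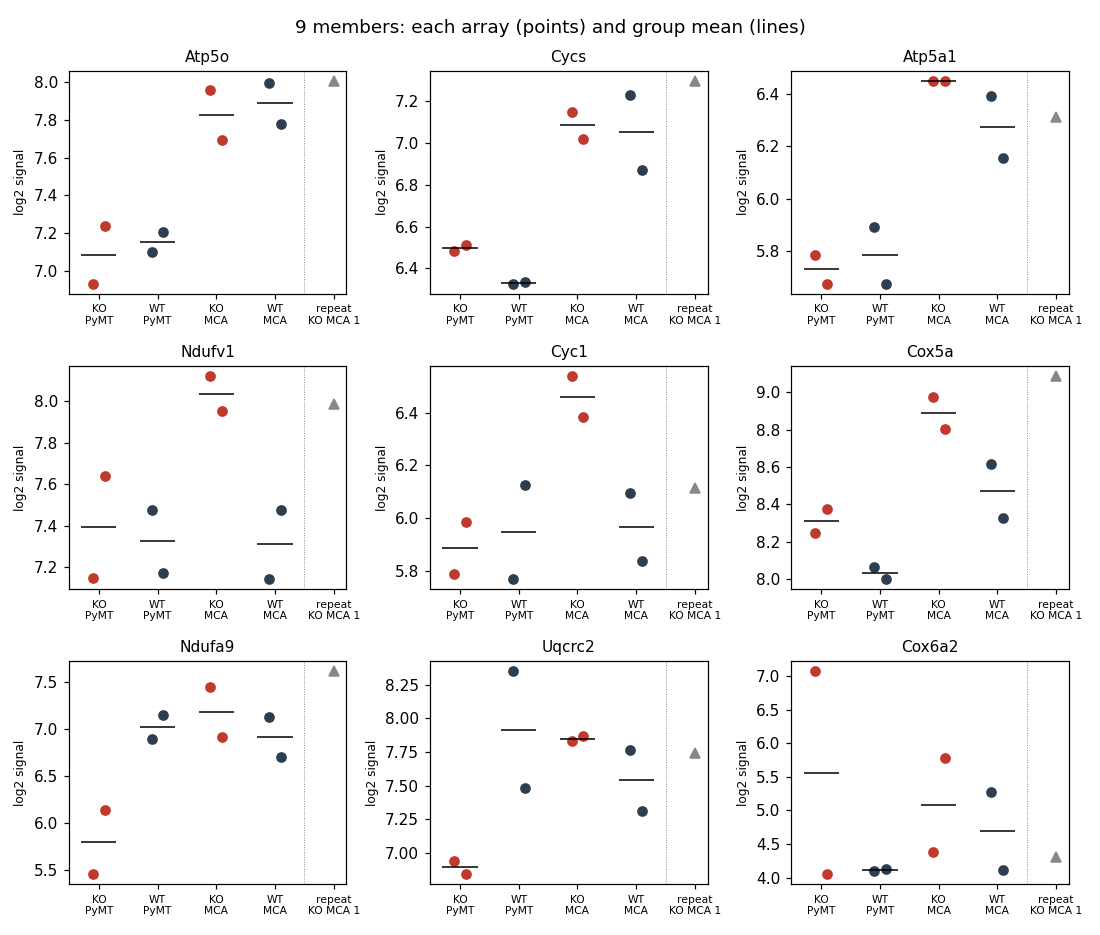
Log2 signal of 9 members on each array (points) with group means (lines), KO in red and WT in dark blue, and the repeat array of KO_MCA replicate 1 as a grey triangle; vertical scales differ between panels. Atp5o, Cycs and Atp5a1 separate by tumour, Ndufv1, Cyc1 and Cox5a are highest in KO_MCA, Ndufa9 and Uqcrc2 are lowest in KO_PyMT, and Cox6a2 is high on single arrays.

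Several subunits have isoforms that are known from particular tissues, and these were mostly at background. Cox7b2 and Cox8c, known from testis, and Cox8b, known from heart and muscle, were above background on 0 of 8 arrays. Cox6b2, also a testis isoform, and Cox4i2, known from lung and low oxygen, were each above background on 1 array, a WT_PyMT one, as were Ndufs1, a core subunit of complex I, and Uqcrq, a small subunit of complex III. These 7 members did not pass the filter, and no group difference is given for them. Their partners Cox6b1 and Cox4i1 were above background on all 8 arrays, with raw signals of 1053 to 1831 and 423 to 954. Cox8a, Cox7c, Atp5g1, Ndufs5, Ndufa4l2 and the mitochondrially encoded subunits were not analysed here. Ndufa4 was first assigned to complex I and is now known as a subunit of complex IV. By its symbol it is counted with complex I throughout, and it differed by -0.19 ± 0.16 between the tumours.

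Cox6a2, the heart and muscle isoform of Cox6a1, was high on single arrays. It read 7.07 and 4.05 in KO_PyMT, 4.10 and 4.13 in WT_PyMT, 4.37 and 5.77 in KO_MCA and 5.27 and 4.12 in WT_MCA, and 6.52 on the mixed PyMT array. It was above background on 4 of the 8 group arrays and not well above background on either WT_PyMT array. With the WT_PyMT values raised to the lowest signal above background, the KO mean in PyMT was 2.46-fold higher. The limma test, on the values as read, gave an adjusted p of 0.661. The higher mean rested on 1 KO_PyMT array, as the other, at 4.05, was at background and below both WT_PyMT arrays. Of 13 skeletal muscle markers, 3 to 4 were above background in KO_PyMT, 4 to 5 in WT_PyMT, 3 in KO_MCA and 2 to 4 in WT_MCA. Their summed signal was 63.0 to 153 in KO_PyMT, 86.4 to 106 in WT_PyMT, 47.5 to 92.7 in KO_MCA and 81.8 to 86.2 in WT_MCA. Actn3 was above background on 8 of the 8 arrays, Tnni2 on 7, Mylpf on 5, Mb on 4, Des on 2 and Ckm and Myl1 on 1 each, and Acta1, Myh1, Myh2, Myh4, Tnnt3 and Tnnc2 on 0. On KO_PyMT replicate 1, Actn3 and Mb had their highest values, 5.32 and 4.82, and Tnni2 its lowest, 4.07. The part of muscle RNA in Cox6a2 was not tested. Cox6a1 read 8.55 and 9.34 in KO_PyMT, 9.15 and 9.20 in WT_PyMT, 9.27 and 9.18 in KO_MCA and 8.99 and 8.93 in WT_MCA, and KO_PyMT replicate 1, the array with the highest Cox6a2, had the lowest Cox6a1. Cox7a1, another heart and muscle isoform, was above background on 5 arrays and on neither KO_PyMT array.

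Genes around the complexes were read from lists of the same pathway. Beside the counts that follow, 49.9% of all genes were lower in PyMT than in MCA macrophages. KO minus WT was positive for 49.6% of all genes in PyMT and 49.9% in MCA, and negative for 50.4% and 50.1%. Mitochondrial ribosomal proteins, which translate the mitochondrially encoded subunits, were lower in PyMT than in MCA macrophages for 56 of 73 (median -0.27), and KO minus WT was negative for 48 of 73 in PyMT (-0.26) and positive for 45 of 73 in MCA (0.08). Assembly factors of the complexes were lower in PyMT for 30 of 40 (-0.22), and KO minus WT was positive for 17 of 40 in PyMT and 23 of 40 in MCA. Tricarboxylic acid cycle enzymes were lower in PyMT for 10 of 12 (-0.10), with KO minus WT positive for 5 of 12 in PyMT and 9 of 12 in MCA (0.24). Carriers and channels (Slc25a3, Slc25a4, Slc25a5, Vdac1, Vdac2 and Vdac3) were lower in PyMT for 4 of 6 and higher in KO for 5 of 6 in MCA. The uncoupling protein Ucp2, also named in that list, was not among the genes with a probe. By limma 0 genes of these lists were called in any of these comparisons.

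Among these genes, Mdh2 and Ppargc1b were chosen for display after their values were seen. Mdh2, the malate dehydrogenase of the cycle, read 6.36 and 6.14 in KO_PyMT, 5.30 and 6.02 in WT_PyMT, 7.14 and 7.12 in KO_MCA and 6.64 and 6.66 in WT_MCA, with PyMT minus MCA at -0.94 ± 0.18 and an adjusted p of 0.0945. Every PyMT array was below every MCA array. Regulators of mitochondrial biogenesis had 9 of 11 genes higher in KO_MCA (median 0.22) and 6 of 11 in KO_PyMT (0.11). Ppargc1b, a coactivator that induces respiratory genes, read 5.30 and 5.03 in KO_PyMT, 4.73 and 5.10 in WT_PyMT, 5.94 and 6.36 in KO_MCA and 4.65 and 4.36 in WT_MCA. Its KO minus WT difference in MCA was 1.64 ± 0.25, with an unadjusted p of 0.000377 and an adjusted p of 1. The KO_MCA arrays stood above all others, and those of PyMT overlapped between genotypes.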

How the data were processed

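Per the labels' protocols, RNA was isolated with the RNeasy micro kit and amplified from small amounts before biotin labelling and hybridisation. The authors deposited, per the file headers, an unnormalized intensity and a detection p-value per probe and array; how the p-value was computed is not given in the sources used. They also deposited normalized intensity, used as an alternative. Background correction, quantile normalization and log2 (neqc, offset 16) were run over all 12 arrays with limma 3.58.1 in R 4.3.3. Probes were named by the platform table and updated through RefSeq (GRCm38.p6). Of 46237 probes, 35784 had 1 symbol, 0 several and 10453 none, and 35728 symbols matched. The number of arrays limits the precision.

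A limma model of 4 groups gave KO minus WT in each tumour and their difference, and an additive model of genotype and tumour gave the effects over both. Two-sided p-values were adjusted over 13128 genes by Benjamini-Hochberg, with calls at an adjusted p under 0.05. The code was tested on simulated data. Alternatives changed background correction, normalization, filter, probe choice, weights, block, samples in the fit and single arrays, and the probe chosen among those above background was added after seeing the data. The text names core and catalytic subunits, isoform pairs, members at background in a group and, in each comparison, the 3 members with the smallest p each way. Members, lists and rules were chosen with earlier results of these data known. Figures used matplotlib 3.10.9.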

Additional observations from a re-analysis of the deposited data

Results flagged for a closer look

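For 6 members every KO array lay below every WT array in PyMT and every KO array lay above every WT array in MCA, an arrangement that 2.89% of all 13128 genes had. The difference of the 2 genotype effects, PyMT minus MCA on the log2 scale, was -1.33 for Uqcrc2, a core protein of complex III, with -1.02 in PyMT and 0.31 in MCA. It was -0.79 for Atp5g3 (-0.53 in PyMT, 0.26 in MCA), -0.65 for Atp5k (-0.34 and 0.31), -0.44 for Cox5b (-0.30 and 0.14), -0.41 for Ndufb7 (-0.36 and 0.04) and -0.395 for Atp5d (-0.23 and 0.16). In the limma interaction test the adjusted p of these members ran from 0.744 for Uqcrc2 to 0.921 for Atp5d, so 0 passed. Further probes of Atp5k and Cox5b gave positive differences in PyMT, 0.15 and 0.04. The opposite arrangement was found for 0 members and for 2.42% of all genes.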

How the results depend on the processing

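In all alternatives run, 0 members were called in any of the 5 comparisons. The PyMT minus MCA median of the members, -0.34 as reported, was -0.23 with no background correction and -0.23 on the authors' normalized values, and -0.58 with median scaling, which moved the median of all genes by -0.135. The members higher in PyMT numbered 2 of 75 with median scaling and 10 of 82 with no detection filter, which adds the members that did not pass it. They numbered 2 to 11 of 75 with 1 array left out, the highest count without KO_PyMT replicate 1. With 1 array left out, members lower in KO_MCA numbered 6 to 27, and with array weights 19 members were lower over both tumours. The KO minus WT median in PyMT, near 0, ran from -0.12 to 2e-04 with 1 array left out.

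Some single members turned their sign. With the mean of a gene's probes, KO minus WT in PyMT was -0.066 for Cox7a2l and 0.14 for Ndufa6, in MCA 0.061 for Ndufb11, and over both tumours 0.054 for Ndufa6. Ndufb11 in MCA was 0.042 with KO_MCA replicate 1 averaged with its repeat and ran from -0.55 to 0.18 with 1 array left out, and Ndufa8 in MCA from -0.39 to 0.10. Ndufv3 in PyMT minus MCA was -0.22 with median scaling, -0.0044 with the mean of probes and -0.19 to 0.36 with 1 array left out. For these turns, beyond the probe or array that each alternative changes, the cause was not tested.

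Across all genes, deviations of arrays of the same number hardly correlated, by -0.0046 in PyMT and 0.0783 in MCA. Over the members, the median of replicate 2 minus replicate 1 was -0.17 in KO_MCA and -0.21 in WT_MCA. It was 0.11 in KO_PyMT and 0.09 in WT_PyMT, so for the members arrays of the same number moved the same way within a tumour. Whether the arrays were paired by number was not tested. The replicate block left every median as it was, for example 0.20 for KO minus WT in MCA, and called 0 members, with 22 genes of all called in PyMT minus MCA against 24 without it. With 2 arrays a group and 9 of the 75 members that passed the filter not above background on every array, small differences were not detectable.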

Other observations

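The mixed arrays, whose make-up is not stated in the sources used, belong to no comparison. Over the 75 members their median deviation from the mean of the 8 group arrays was -0.06 for mixed PyMT, 0.04 for mixed MCA replicate 1 and 0.05 for mixed MCA replicate 2. Tfb2m, a mitochondrial transcription factor from the list of biogenesis regulators, read 5.10 and 4.28 in KO_PyMT and 5.64 and 5.24 in WT_PyMT, against 6.22 and 6.16 in KO_MCA and 5.54 and 5.23 in WT_MCA. KO arrays were below WT arrays in PyMT and above them in MCA, without overlap, with limma differences of -0.75 ± 0.31 and 0.81 ± 0.31 (SE) and adjusted p of 0.445 and 1. Tfb2m was chosen after its values were seen.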
